A study of Homo sapiens with 9 samples.

Results

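The transcription factors CDX1, CDX2, HNF4A, GATA6, KLF5, SOX9 and FOXA2 set up and maintain gut and intestinal cell identity. Their RNA was measured in RKO, a human colorectal cancer cell line, and in RKO clones in which DIP2C had been knocked out. The 7 factors were found by gene symbol among the 23619 genes of each count table. Of these 7, CDX2, GATA6, KLF5 and HNF4A passed a filter on low counts that 15532 genes passed, and CDX1, SOX9 and FOXA2 did not. The study asked how loss of DIP2C changes gene expression, and the comparisons below are of the knockout clones with unedited RKO. Parental RKO had 2 samples, DIP2C-/- had clones E3 and C10, and DIP2C+/- had clones A6-C9, A9-A12, F6-A7, G1-A5 and H9-A4. The labels hold more DIP2C+/- clones than the paper describes, and all of them were used as labelled. All 9 samples were untreated RKO cells grown for 48 h, and each clone was sequenced as 1 library. The knockout allele carries a deletion in exon 9 that was introduced with a recombinant adeno-associated virus vector, and both DIP2C-/- clones came from a DIP2C+/- clone by further targeting. The clones are therefore not independent of each other, and no clone that went through targeting with DIP2C intact was among the samples. Nothing in the labels states that the parental samples came from separate cultures, so p-values measure the spread between these libraries only.

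CDX2 and CDX1 are homeobox factors that specify the hindgut and keep the adult epithelium intestinal. HNF4A, a nuclear receptor, and GATA6, a zinc finger factor, act with CDX2 at enhancers of enterocyte genes, the genes of the absorptive cell. KLF5 is a zinc finger factor of the dividing cells of the crypt, and SOX9 marks the crypt base, where it acts downstream of WNT signalling. FOXA2 is a pioneer factor that opens chromatin in the early endoderm and is also active in the gut and liver. CDX2 is used in pathology as a marker of intestinal origin. RKO is a poorly differentiated line, and loss of differentiation in colorectal tumours is often accompanied by loss of CDX2.

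In GRCh37, the build to which the reads had been aligned, CDX2 lies on the minus strand at chr13:28535055-28543452 and KLF5 on the plus strand of the same chromosome at chr13:73629114-73651679. GATA6 is at chr18:19749550-19782491 on the plus strand and HNF4A at chr20:42984339-43061485 on the plus strand. CDX1 is at chr5:149546341-149564121 and SOX9 at chr17:70117161-70122557, both on the plus strand, and FOXA2 is on the minus strand at chr20:22561636-22566093. Annotated antisense genes overlap HNF4A, GATA6 and SOX9 (HNF4A-AS1, GATA6-AS1 and SOX9-AS1). No strand setting is given for the counting, so reads of these 3 factors and of their antisense partners cannot be told apart.

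CDX2, GATA6 and KLF5 held nearly all reads of the 7 factors, and the start regions of these 3 genes are shown because the letters bound by several of the factors occur in them. Each sequence runs 5′ to 3′ on the gene's own strand from 250 bases before the start site to base 50 after it, and is taken from RefSeq promoters of build GRCh38.p14 that were placed on GRCh37 by exact match. The windows are chr13:28543403-28543702 (minus strand) for CDX2, chr18:19749300-19749599 (plus strand) for GATA6 and chr13:73632893-73633192 (plus strand) for KLF5. Capitals mark every match, on either strand, to TTTAT for CDX factors, AGATAA for GATA factors, GGGCGG for KLF and SP factors, TGTTTAC for FOXA factors, ACAAAG for SOX factors or GTTAAT for HNF1 factors.
CDX2: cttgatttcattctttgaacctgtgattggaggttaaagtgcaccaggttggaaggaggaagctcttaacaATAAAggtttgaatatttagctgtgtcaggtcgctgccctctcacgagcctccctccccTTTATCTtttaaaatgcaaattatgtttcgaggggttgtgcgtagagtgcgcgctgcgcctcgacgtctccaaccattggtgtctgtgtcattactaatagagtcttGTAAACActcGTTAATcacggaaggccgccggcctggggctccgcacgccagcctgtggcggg
GATA6: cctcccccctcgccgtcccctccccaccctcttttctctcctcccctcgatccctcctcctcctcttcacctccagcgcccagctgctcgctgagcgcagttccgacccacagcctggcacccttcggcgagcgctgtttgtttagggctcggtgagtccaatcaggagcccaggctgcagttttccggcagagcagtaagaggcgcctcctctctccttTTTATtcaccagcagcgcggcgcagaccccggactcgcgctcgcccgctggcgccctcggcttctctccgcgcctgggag
KLF5: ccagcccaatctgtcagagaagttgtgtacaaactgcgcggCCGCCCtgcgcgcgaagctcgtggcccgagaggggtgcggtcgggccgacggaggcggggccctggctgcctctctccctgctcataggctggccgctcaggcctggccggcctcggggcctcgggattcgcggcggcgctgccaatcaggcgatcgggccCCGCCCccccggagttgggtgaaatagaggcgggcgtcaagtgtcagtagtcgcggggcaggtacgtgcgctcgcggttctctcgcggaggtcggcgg

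Counted from the start site, with -1 as the last base before it, the CDX2 window held 2 CDX matches that start at bases -179 and -120. The latter overlaps the only GATA match, which starts at base -119. A FOXA match starts at base -13 and an HNF1 match at base -3. The GATA6 window held 1 CDX match at base -30, and the KLF5 window held 2 KLF and SP matches at bases -209 and -48. Of 35116 promoters of the same length, 34.9% held the CDX letters, 10.3% the GATA letters, 45.0% the KLF and SP letters, 3.42% the FOXA letters, 16.1% the SOX letters and 6.88% the HNF1 letters. The KLF5 window had 37 CpG dinucleotides, GATA6 had 25 and CDX2 had 16, against a median of 14 and quartiles of 4 and 28 over all promoters. Another annotated KLF5 start, at base -4029 from this one, had 4 CpG dinucleotides and 1 CDX match. These matches describe letters, and no binding was measured.

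Library totals were 14772593 to 21486483 estimated counts, at which 3 counts correspond to 0.14 to 0.203 CPM (counts scaled to a common library total), the smallest level taken as detectable. DIP2C itself, the check of the labels, was at 60.9 and 70.8 CPM in parental RKO, at 17.4 in E3 and 22.8 in C10, and at 33.6 to 56.2 in the DIP2C+/- clones, so every clone was below both parental libraries. Clone H9-A4 had the highest DIP2C level of the clones, 56.2 CPM, close to the lower parental library at 60.9. For this clone the check bears out the label only weakly. H9-A4 also stood apart from the other 4 DIP2C+/- clones. The chi-square per degree of freedom between their libraries was 100.2 to 117.7 for pairs with H9-A4 and 21.5 to 55.1 for pairs without it. Calls of the factors are therefore also given without H9-A4 where that changes them.

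RKO had mid-level CDX2, KLF5 and GATA6 RNA and little HNF4A RNA, and its CDX1, SOX9 and FOXA2 RNA was under the detectable level. Per kilobase of transcript, KLF5 had a mean level of 6.91 CPM (n = 2), CDX2 4.996, GATA6 2.82, HNF4A 0.138, CDX1 0.0568, SOX9 0.0128 and FOXA2 0.00839. The parental libraries of KLF5, CDX2, GATA6 and HNF4A did not overlap on this scale. The order of CDX1, SOX9 and FOXA2 rests on 4, 2 and 1 reads in both parental libraries together, and the libraries of SOX9 and FOXA2 overlapped. Set among 13500 genes that passed the filter and had a transcript length, KLF5 was above 50.8% of genes in parental RKO, CDX2 above 43.99%, GATA6 above 35.6% and HNF4A above 10.6%.

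**Figure D1:**
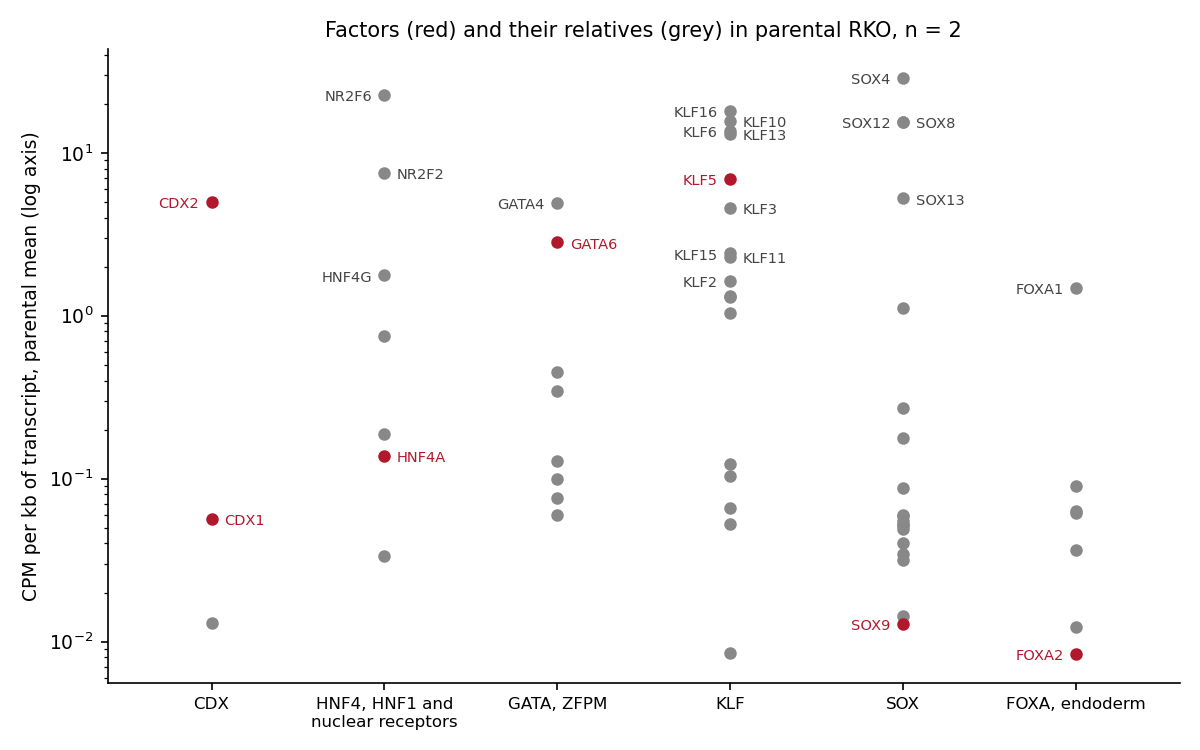
Level of each factor (red) and of the other genes of its family or class (grey) in parental RKO, as the mean CPM per kilobase of transcript of 2 libraries on a log axis. CDX2, GATA6 and KLF5 sit between 2.82 and 6.91, while CDX1, HNF4A, SOX9 and FOXA2 sit below 0.14 and have higher relatives or neighbours in their columns, such as NR2F6 at 22.6 and SOX4 at 28.7.

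For several of the low factors, and for the mid-level GATA6, a relative was present at a higher level. HNF4G, the paralog of HNF4A, was at 7.16 and 7.68 CPM in parental RKO against 0.64 in both libraries for HNF4A. FOXA1, which shares the DNA-binding domain of FOXA2, was at 5.54 and 4.88 CPM, against 0.04 and 0 for FOXA2. GATA4, a partner of GATA6 in the foregut and proximal intestine, was at 14.95 and 18.6 CPM, above GATA6 at 10.9 and 9.60 also per kilobase (means of 4.91 and 2.82). Of 19 SOX genes, SOX4, SOX12, SOX8 and SOX13 were the highest, with parental means of 140.0, 72.2, 47.8 and 21.4 CPM, while SOX9, which shares the group E class with SOX8, had 1 read in each parental library. CDX4, the remaining CDX gene, was at 0.04 and 0 CPM, so CDX2 was the single CDX gene above the detectable level in parental RKO.

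No factor passed the test in any comparison when all 9 libraries were fitted. Called genes had a Benjamini-Hochberg adjusted p under 0.05 in edgeR's quasi-likelihood test over all 15532 genes. In DIP2C-/- against parental RKO, 0 of the 4 tested factors were called beside 0.00644% of all genes, and in DIP2C+/- against parental RKO 0 of 4 beside 0.0966%. With all 7 clones against parental RKO, 0 of 4 were called beside 0.18%. In DIP2C+/- against DIP2C-/-, 0 of 4 factors and 0% of genes were called by edgeR, 865 genes had an unadjusted p under 0.05, and DESeq2's Wald test called 6 genes. These comparisons share parental samples or clones. DIP2C, the gene knocked out, was not called in this fit either. Its adjusted p in edgeR's test was 0.0998 in DIP2C-/-, 0.386 in DIP2C+/- and 0.132 in all clones against parental RKO. Without H9-A4 it was called lower in each (adjusted p = 0.00103, 0.0285 and 0.00216). As H9-A4 had the highest DIP2C level of the clones, leaving it out had to lower the DIP2C+/- and pooled values. They went from -0.60 to -0.71 and from -0.92 to -1.04. In DIP2C-/- clones the value stayed at -1.71 and the SE fell from 0.25 to 0.21. A missing call with all 9 libraries therefore does not show that a factor was unchanged. The median log2 fold change of the 4 factors over all clones was -0.31, beside 0.02 over all genes tested. Without H9-A4 these medians were -0.44 and 0.01. With all 9 libraries all 4 factors had a fitted value below 0, as 7481 of 15532 genes did. KLF5 carried the largest of these differences and CDX2 the smallest.

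CDX2 had nearly the same level in every library. It was at 16.0 and 18.4 CPM in parental RKO, at 16.2 in E3 and 15.6 in C10, and among the DIP2C+/- clones at 15.6 in A6-C9, 15.8 in A9-A12, 15.6 in F6-A7, 16.5 in G1-A5 and 19.8 in H9-A4. The highest library, H9-A4, was 1.27-fold above the lowest, A6-C9, and the parental range overlapped that of both genotypes. The log2 fold change was -0.11 ± 0.21 (SE) in DIP2C-/- clones with a 95% confidence interval of -0.59 to 0.36, and -0.05 ± 0.18 in DIP2C+/- clones with an interval of -0.44 to 0.35 (adjusted p = 0.867 and 0.946).  The SD of log2 CPM over the 9 libraries was 0.122. Of the 3634 genes within 2-fold of CDX2's mean level, 1.43% had a smaller SD, and their median SD was 0.304.

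**Figure D2:**
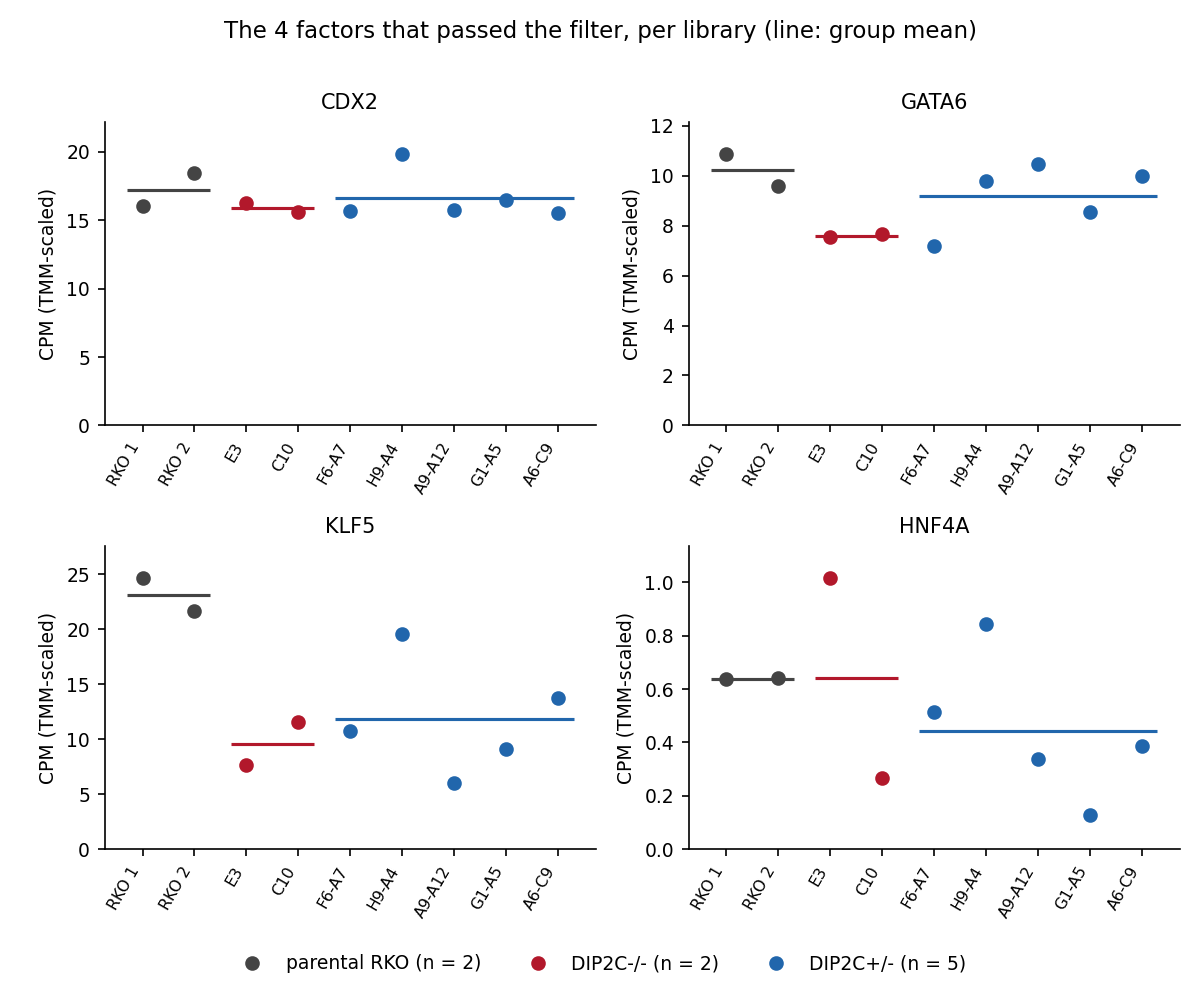
CPM of the 4 factors that passed the filter in each library (points), with the mean of each group as a line, in 2 parental, 2 DIP2C-/- and 5 DIP2C+/- libraries. CDX2 stays between 15.6 and 19.8 CPM, all 7 clones lie below both parental libraries for KLF5, and HNF4A stays at or under 1.02 CPM.

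GATA6 was also even, and lowest in both DIP2C-/- clones and in F6-A7. Its level was 10.9 and 9.60 CPM in parental RKO and 7.54 and 7.67 in E3 and C10. The DIP2C+/- clones had 9.998 CPM in A6-C9, 10.5 in A9-A12, 7.18 in F6-A7, 8.55 in G1-A5 and 9.77 in H9-A4. Both DIP2C-/- clones, F6-A7 and G1-A5 lay below both parental libraries, and the other 3 clones lay between them. The share of all genes with as many clones below was not computed, so this count is not read as a decrease. The log2 fold change of -0.43 ± 0.28 in DIP2C-/- clones did not pass the test (adjusted p = 0.548, 95% confidence interval -1.05 to 0.19), and neither did that of -0.15 ± 0.23 in DIP2C+/- clones (adjusted p = 0.843). Only 8.86% of the 2552 genes within 2-fold of its mean level had a smaller SD than GATA6 (0.22).

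KLF5 was lower than in parental RKO in all 7 clones, and it was the factor that varied most among the expressed ones. Parental RKO had 24.7 and 21.6 CPM, and the DIP2C-/- clones E3 and C10 had 7.64 and 11.6. Among the DIP2C+/- clones, A9-A12 was lowest at 5.99 CPM, G1-A5 had 9.11, F6-A7 had 10.8, A6-C9 had 13.7, and H9-A4 was closest to parental RKO at 19.6. No clone overlapped the parental libraries, which was so, with all 7 clones on the lower side, for 5.56% of the genes tested. The parental mean was 2.41-fold above the DIP2C-/- level and 1.96-fold above the DIP2C+/- level in the fit.

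The log2 fold change of KLF5 was -1.27 ± 0.46 in DIP2C-/- clones (adjusted p = 0.344), -0.97 ± 0.36 in DIP2C+/- clones (adjusted p = 0.399) and -1.05 ± 0.34 in all clones (adjusted p = 0.304). Whether these were called depended on clone H9-A4. Without it, KLF5 was called lower in DIP2C+/- clones (-1.22 ± 0.29, adjusted p = 0.027) and in all clones (-1.24 ± 0.27, adjusted p = 0.0161). It was not called in DIP2C-/- clones, where the value stayed at -1.26 and the SE fell to 0.35 (adjusted p = 0.0725). Many more genes were called without H9-A4: 2.44% of 15390 genes were called lower in DIP2C-/- clones, 3.58% in DIP2C+/- clones and 4.47% in all clones. H9-A4 is also the clone whose KLF5 was nearest to parental RKO, so the mean of the DIP2C+/- clones moves when it is left out. In a fit of the parental and DIP2C-/- libraries alone, without the spread of the DIP2C+/- clones, KLF5 was called in DIP2C-/- clones at an adjusted p of 0.00676, where 1807 of 14381 genes were called. Over the 17 alternatives the adjusted p for DIP2C-/- ranged from 0.00676 to 0.776 and the log2 fold change from -1.63 to -0.99. The summed level of 8 mesenchymal markers was higher in the 6 clones with the lower KLF5 levels than in parental RKO and H9-A4. It was 24.3 and 27.9 CPM in parental RKO, 119.2 and 125.9 in the DIP2C-/- clones, 20.1 in H9-A4 and 56.3 to 94.0 in the other DIP2C+/- clones. ZEB1, a repressor of epithelial genes, made up most of each sum in the clones other than H9-A4 (52.7 to 119.1 CPM). Of the 6 markers that passed the filter, 5 were fitted higher and 1 lower in DIP2C-/- clones with all 9 libraries. In DIP2C+/- clones 3 were fitted higher and 3 lower, so the sum does not stand for the whole list. Of the 8 mesenchymal markers, 2 reached 1 CPM in all 9 libraries and 0 were at 0 throughout, and their part in the KLF5 levels was not tested. Among the 6 clones their sum did not follow KLF5. C10 had 125.9 CPM with KLF5 at 11.6, and G1-A5 had 56.3 with KLF5 at 9.11. The sum of 8 epithelial markers did not separate the libraries as KLF5 did. It was 231.9 and 288.8 CPM in parental RKO, 185.5 in H9-A4 and 315.6 in A9-A12, the clone lowest in KLF5. How many other genes separate the same 6 clones was not counted. Between the genotypes KLF5 differed by 0.30 ± 0.39 (DIP2C+/- minus DIP2C-/-, adjusted p = 0.941, 95% confidence interval -0.56 to 1.16). Without H9-A4 this difference was 0.04 ± 0.31 (adjusted p = 0.985, 95% confidence interval -0.64 to 0.72).

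**Figure D3:**
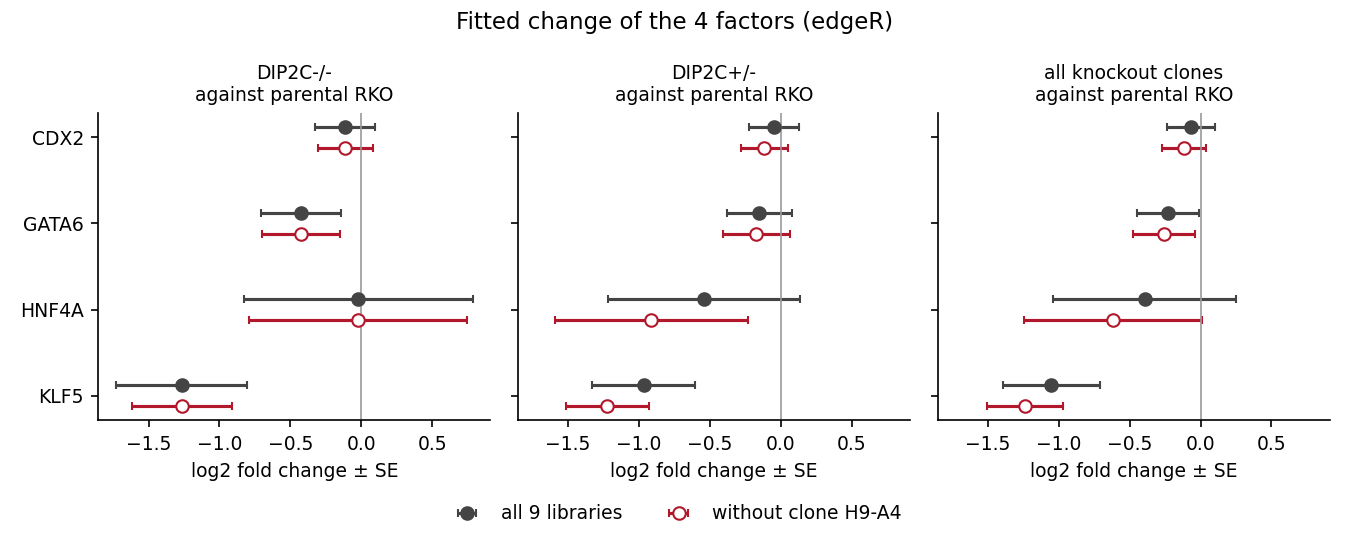
Fitted log2 fold changes of the 4 tested factors with standard errors, for 3 contrasts with parental RKO, with all 9 libraries (filled) and without clone H9-A4 (open). KLF5 is near -1 or lower in each panel, and CDX2 stays within 0.12 of 0 with errors that cross it.

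HNF4A was near the detectable level and scattered. It was at 0.64 CPM in both parental libraries (15 and 11 reads), at 1.02 in E3 and 0.27 in C10, and at 0.39 in A6-C9, 0.34 in A9-A12, 0.51 in F6-A7, 0.13 in G1-A5 and 0.84 in H9-A4. The parental libraries were almost equal, at 0.6389 and 0.6397 CPM, so nearly any clone had to fall outside their range. E3 and H9-A4 lay above both and the other 5 clones below them. The highest library was 7.95-fold above the lowest, G1-A5, which had 3 reads. The log2 fold changes of -0.02 ± 0.81 in DIP2C-/- and -0.54 ± 0.68 in DIP2C+/- clones had 95% confidence intervals of -1.80 to 1.76 and -2.04 to 0.95. Each interval also holds KLF5's value in the same contrast, so a difference of that size could not be told from none. Without H9-A4 HNF4A in DIP2C+/- clones was at -0.91 ± 0.68, with an interval of -2.41 to 0.58. Its SD of log2 CPM, 0.688, was larger than that of 58.0% of the 2907 genes at a like level.

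**Figure D4:**
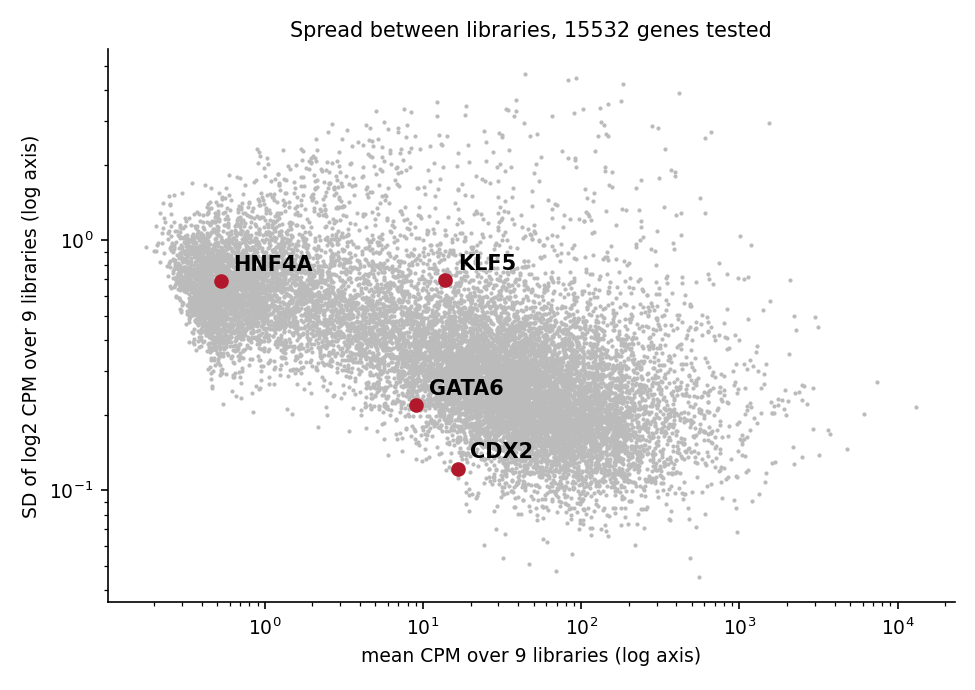
SD of log2 CPM against mean CPM over 9 libraries, both on log axes, for 15532 genes (grey) and the 4 tested factors (red). CDX2 (SD 0.122) and GATA6 (0.22) lie at the lower edge of genes at their level and KLF5 (0.693) above most of them.

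CDX1, SOX9 and FOXA2 were represented by 27, 31 and 28 reads over all 9 libraries. CDX1 had 2 reads in each parental library, 5 in E3, 1 in C10, 2 in A6-C9, 6 in A9-A12, 3 in F6-A7, 1 in G1-A5 and 5 in H9-A4. SOX9 had 1 read in each parental library, 6 in E3, 4 in C10, 6 in A6-C9, 4 in A9-A12, 5 in F6-A7, 1 in G1-A5 and 3 in H9-A4. FOXA2 had 1 and 0 reads in parental RKO, 7 in E3, 2 in C10, 3 in A6-C9, 1 in A9-A12, 6 in F6-A7, 5 in G1-A5 and 3 in H9-A4. Summed over libraries, the ratio of clones to parental RKO was 1.54 for CDX1 (95% exact interval 0.527 to 6.13), 3.89 for SOX9 (0.983 to 33.6) and 7.24 for FOXA2 (1.19 to 296.3). These intervals cover counting error only and not the spread between clones. All 3 factors stayed at or below 0.34 CPM in every library.

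The libraries with the most FOXA2 reads, E3 and F6-A7, also had the highest summed level of 25 liver, leukocyte and endothelial genes, 12.5 and 12.2 CPM, against 8.22 and 8.90 in parental RKO and 6.33 to 10.1 in the other 5 clones. Of these genes 16 are liver genes known to lie downstream of HNF4A and FOXA2, so this sum is not independent of the factors. G1-A5, next in FOXA2 with 5 reads, had a sum of 6.47 CPM. A6-C9, with 6 SOX9 reads like E3, had 6.33, and A9-A12, highest in CDX1 with 6 reads, had 8.23. The 4 endothelial genes summed to 4.55 CPM in E3 and 4.77 in F6-A7, against 1.86 to 2.98 in the other 7 libraries. The liver genes summed to 6.09 in E3 and 5.28 in F6-A7, close to 5.27 in H9-A4, and to 2.82 to 4.64 elsewhere. The 5 leukocyte genes did not set these clones apart (1.84 and 2.15 CPM, against 1.41 and 2.38 in parental RKO). Of the 25 genes 0 were at 0 in all libraries, and 0 of the 16 liver genes reached 1 CPM in any library. E3 and F6-A7 also had the most genes above 0, 21397 and 21200, against 20327 to 21148 elsewhere. Without both clones the ratio was 1.37 for CDX1 (95% exact interval 0.436 to 5.66), 3.28 for SOX9 (0.786 to 29.2) and 5.10 for FOXA2 (0.777 to 215.8). Each of these intervals includes 1, while that of FOXA2 over all clones did not. As E3 and F6-A7 hold the most FOXA2 reads, leaving them out had to lower the FOXA2 ratio. Whether these low-level reads account for those of the 3 factors was not tested.

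**Figure D5:**
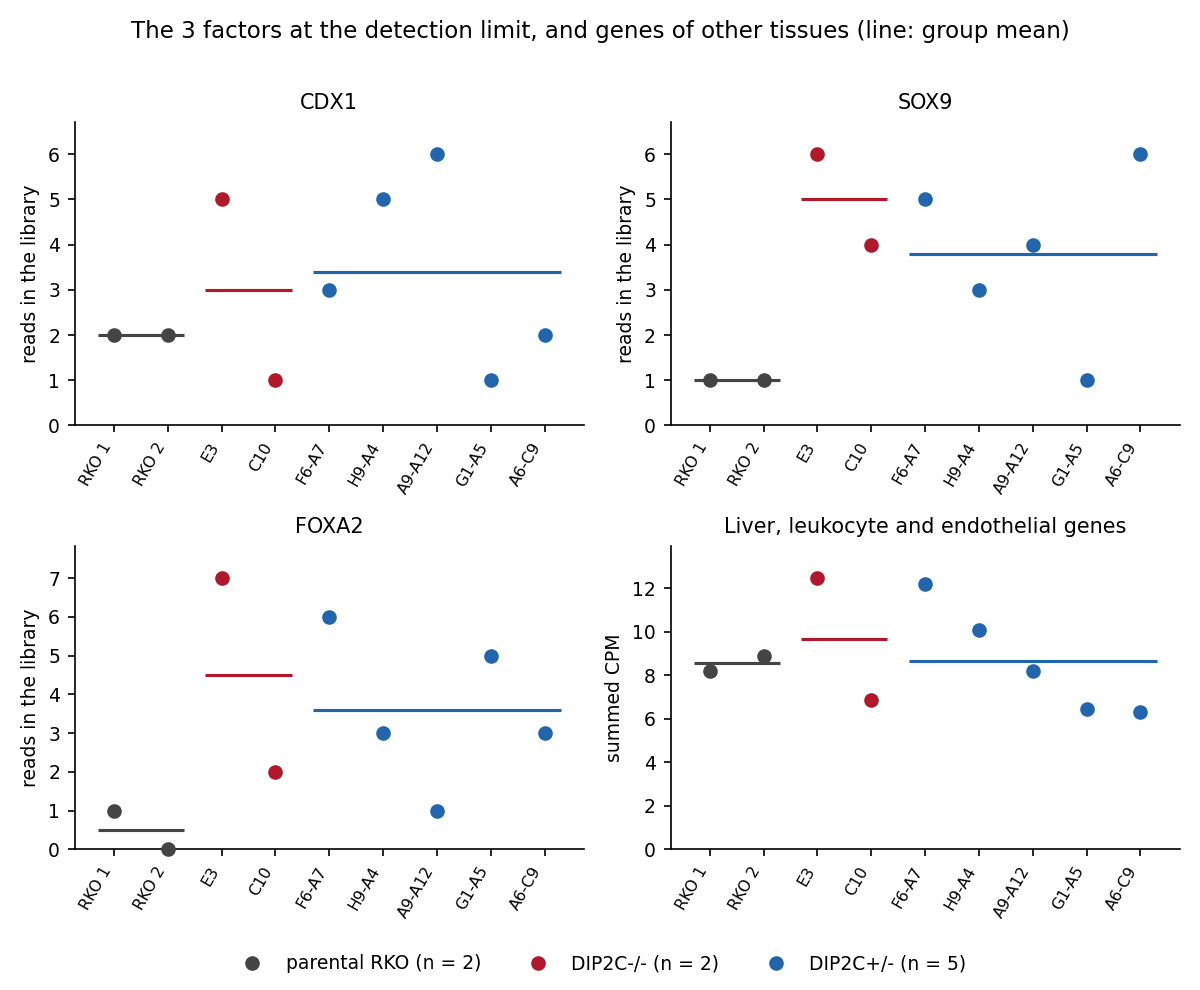
Reads of CDX1, SOX9 and FOXA2 per library, and the summed CPM of 25 liver, leukocyte and endothelial genes (points; lines are group means; 2 parental, 2 DIP2C-/- and 5 DIP2C+/- libraries). No library has more than 7 reads of any of the 3 factors, and E3 and F6-A7 are highest both for FOXA2 and for the summed genes, 16 of which are liver genes downstream of HNF4A and FOXA2.

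Taken clone by clone, the order of the 7 factors changed at the top. Per kilobase, KLF5 was the first and CDX2 the second in both parental libraries and in H9-A4, and CDX2 was the first in the other 6 clones. GATA6 ranked above KLF5 in A9-A12. As log2 differences from the parental mean, with 2 as the prior count, KLF5 ranged from -1.92 in A9-A12 to -0.24 in H9-A4, GATA6 from -0.50 in F6-A7 to 0.04 in A9-A12, and CDX2 from -0.14 in A6-C9 to 0.20 in H9-A4. HNF4A ranged from -1.55 in G1-A5 to 0.60 in E3. No factor passed 4-fold in any clone on this scale, which 7.6% of the genes tested did in at least 1 clone. With a prior count of 0.5 FOXA2 passed it in E3 (2.88), F6-A7 (2.81) and G1-A5 (2.24) and SOX9 in E3 (2.11) and A6-C9 (2.04), on 7 or fewer reads each. No share of all genes was taken at this prior count. FOXA2 and SOX9 failed the filter on low counts, so the 7.6% does not serve as their background. Single clones are 1 library each, with no replicate check.

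Relatives of the factors were described in the same fits. None of the genes listed for the CDX, HNF4, GATA, KLF, SOX and FOXA groups was called with all 9 libraries. Without H9-A4, the share of all genes called higher was 2.32% in DIP2C-/-, 4.37% in DIP2C+/- and 4.48% in all clones pooled, beside the shares called lower given above. Of 5 tested GATA and ZFPM genes 1 was then called higher in the pooled clones, GATA4 (0.72 ± 0.16, adjusted p = 0.0206), and it was also called in DIP2C+/- but not in DIP2C-/- clones. Its level was 23.5 to 33.8 CPM in the 6 remaining clones and 12.1 in H9-A4. Of 15 tested KLF genes 2 were called lower in the pooled clones, KLF5 and KLF11 (-1.56 ± 0.31, adjusted p = 0.0105), beside 4.47% of all genes, and 0 in DIP2C-/- clones. Of 11 tested SOX genes 1 was, SOX4 (-2.09 ± 0.18, adjusted p = 4.71e-05), also in each genotype. SOX4 was at 142.8 and 137.1 CPM in parental RKO and between 24.4 and 46.6 CPM in 6 clones, while H9-A4 had 495.2. The nuclear receptor NR2F2 was called lower in the pooled clones (-0.58 ± 0.16, adjusted p = 0.0442), 1 of 6 tested genes of the HNF4 and HNF1 list, and in neither genotype alone. HNF4G was at 10.2 to 13.1 CPM in 6 clones and 6.71 in A9-A12, a log2 fold change of 0.53 ± 0.25 over all clones that did not pass the test with all 9 libraries (adjusted p = 0.39).

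Genes that these factors are known to drive were mostly at a low level in RKO. Of 32 enterocyte genes, including brush border enzymes and fatty acid binding proteins, 17 passed the filter on low counts, the median level of all 32 was 0.33 CPM, and CA2 alone reached 1 CPM in all 9 libraries, as 48.4% of the 23619 genes did. CA2, a carbonic anhydrase of colonocytes, was at 18.4 and 21.1 CPM in parental RKO and ranged from 6.82 in F6-A7 to 29.9 in G1-A5, with no call. The apolipoprotein gene APOB, a target of HNF4A, was at 1.58 and 1.396 CPM in parental RKO and was highest in F6-A7 (5.28) and E3 (5.17). Of 8 colorectal markers CDX2 alone reached 1 CPM in all libraries, while VIL1, CDH17 and CEACAM5 stayed at or below 0.94 CPM. Of 21 secretory lineage genes KLF4 and GFI1 did so, and the goblet cell mucin MUC2 was at 0.47 to 1.64 CPM. None of these genes was called, with or without H9-A4. Of 8 general epithelial markers the keratins KRT8 and KRT18 were well detected, at parental means of 21.1 and 236.2 CPM, while EPCAM was at 1.02 and 0.35 CPM in parental RKO, and neither keratin was called. Without H9-A4, 1 of 4 tested epithelial markers was called lower in each contrast with parental RKO, the claudin CLDN3 (-3.06 ± 0.52 in the pooled clones, adjusted p = 0.00424). This was beside 2.44% of all genes in DIP2C-/-, 3.58% in DIP2C+/- and 4.47% in the pooled clones. CLDN3 was at 1.41 and 0.87 CPM in parental RKO and 3.46 in H9-A4. It was at most 0.25 CPM in the other clones, near or under the detectable level.

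The genes most like each tested factor over the 9 libraries were taken by Pearson correlation of log2 CPM among 10644 other genes (10645 for HNF4A) with a mean of at least 5 CPM. For KLF5 they were CORO2A (r = 0.99), PRSS23 (0.98) and FAM107B (0.98). CORO2A, a coronin family actin regulator, had means of 147.8 CPM in parental RKO, 88.1 in DIP2C-/- and 96.7 in DIP2C+/- clones, with 131.6 in H9-A4. PRSS23, a serine protease, had means of 14.1, 4.94 and 6.52 CPM with 12.8 in H9-A4. Both genes were picked for their likeness to KLF5 over these libraries. Their like order of parental RKO, H9-A4 and the other clones follows from that choice. For GATA6 they were BSCL2 (0.96), APLP2 (0.93) and ADM (0.92), and for CDX2 SS18L1 (0.96), HIST1H3G (0.96) and ENO2 (0.95). For HNF4A the highest were USP13 (0.88), BATF3 (0.87) and RFC1 (0.86). These correlations describe 9 libraries that share conditions and, for H9-A4, a clone that stands apart, and they are given without a test.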

How the data were processed

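RNA of 9 RKO samples was sequenced on the Ion Proton system. The authors aligned reads to hg19 with TopHat2 2.0.4 and quantified genes with Cufflinks, version 2.2.1 in the submitters' processing notes. The deposited tables, 1 per library, hold estimated counts for each gene symbol. The step from Cufflinks to these tables is not given in the sources used here. In each library 98.4% to 98.8% of values below 20 steps are whole multiples of 1 step (0.711 to 1.11, within 0.02 steps), so numbers of reads are values divided by the step, 17134472 to 24863895 per library. The design had assumed counts, and the estimated counts were rounded for the fits. A library scaled by a constant alters the precision that a count test assumes, so the fit was repeated on values divided by the step.

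Groups follow the genotype in the labels, which hold 5 DIP2C+/- clones while the paper describes 3. Which of the 5 these are is not given in the sources used here, and each was taken as a replicate. No pair of libraries of a group agreed within sampling noise (chi-square per degree of freedom 18.0 to 117.7 over 12 pairs). Genes kept by filterByExpr were scaled with TMM factors and fitted over all 9 samples in edgeR 4.0.16 (R 4.3.3) with 1 coefficient per condition. The quasi-likelihood F test was used, and the contrast of all clones weighted each of the 7 clones equally. CPM are counts scaled to the TMM-adjusted library total. Standard errors are the log2 fold change over the square root of F. Per-kilobase levels use 1 GENCODE transcript a gene. Read ratios have exact conditional 95% intervals. DESeq2 1.42.0 was an alternative. The fits were run on simulated counts as a check of the code. A pass level for recovered genes was set only at a spread lower than that of these data. That run therefore does not show how many changes the test finds here. The labels name no batch, and none could be examined.

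All 7 factors were named in every library. From each list of related genes, those called with all 9 libraries, or otherwise the 4 highest by mean CPM, were to be named, and other genes named without H9-A4 were chosen after their values were seen. The factors, lists and tests were chosen with earlier results of these data known. MUC5AC, on the list of stomach and foregut genes, was not found in the tables. The methylation arrays of the study were not analysed here.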

Additional observations from a re-analysis of the deposited data

Results flagged for a closer look

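A test for a library far from the rest of its group was run on 70 listed genes in the 5 DIP2C+/- clones, the 1 group large enough for it, with a critical gap of 0.71 of the range. It marked 11 genes, and chance alone marks about 1 in 20. Of the 7 factors, CDX2 was marked, at 19.8 CPM in H9-A4 where the next clone had 16.5 and parental RKO a mean of 17.2.

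H9-A4 was the high clone for 6 more genes. SOX4 was at 495.2 CPM where the next clone had 46.6, AXIN2 at 99.3 where it had 9.49, and EPCAM at 3.78 where it had 0.41. CLDN3, an epithelial claudin, was at 3.46 CPM in H9-A4 where the next clone had 0.25. GATA1 and HPX were both at 0.965 CPM, where the next clones had 0.513 and 0.38. For AXIN2 the parental mean of 92.4 CPM was near the value of H9-A4.

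In other clones, HNF4G was low in A9-A12 at 6.71 CPM, SOX8 was low in A6-C9 at 27.4, VIM was high in A9-A12 at 3.54, and VWF was high in F6-A7 at 2.67, where the next clone had 1.22. What sets H9-A4 apart was not tested.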

How the results depend on the processing

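KLF5 was the single factor whose call changed. In DIP2C-/- against parental RKO, 1 factor was called where only the groups compared were fitted. In DIP2C+/- and in all clones against parental RKO, 1 factor was called without both H9-A4 and A6-C9, and 0 to 1 when libraries were left out in turn. With every other alternative, 0 were called. Small values changed sign. With library size only, HNF4A in DIP2C-/- clones was at 0.0055, and without both H9-A4 and A6-C9 KLF5 in DIP2C+/- against DIP2C-/- was at -0.16. With libraries left out in turn, CDX2 ranged from -0.15 to 0.063 in DIP2C+/- clones, from -0.17 to 0.038 in all clones and from -0.0045 to 0.089 between the genotypes. HNF4A ranged from -1.28 to 0.64 in DIP2C-/- clones and from -1.17 to 0.74 between the genotypes. None of these passed the test. HNF4A has no value with at least 10 counts in every sample, as it fails that filter, and DESeq2 gave it no adjusted p in 3 contrasts. Single-clone differences of CDX1, SOX9, FOXA2 and HNF4A moved with the prior count, and with 0.5 the differences past 4-fold went from 0 to those of FOXA2 in 3 clones and SOX9 in 2.

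Calls over all genes, which the factors' calls are set beside, were 1, 15, 28 and 0 in the 4 contrasts as given in the text, 295, 191, 304 and 6 with DESeq2, 1807, 8, 25 and 1 with only the groups compared, and 0, 8, 11 and 0 with at least 10 counts in every sample. Without H9-A4 they were 733, 1224, 1378 and 0. Without both H9-A4 and A6-C9 they were 768, 874, 1107 and 0, and with no filter on low counts 3, 22, 36 and 0. Leaving out a parental library left 1 or 2 calls a contrast. Leaving out any other clone gave 1 to 4, 3 to 8, 12 to 26 and 0 to 3 calls. The causes were not tested. No paired analysis was possible because the labels give the groups no shared replicate numbers. CDX1, SOX9 and FOXA2 had at most 7 reads in a library and HNF4A at most 21, so moderate differences in them were not detectable at this depth.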

Other observations

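The WNT pathway, in which SOX9 is a target in the crypt, was examined through 14 associated genes. With all 9 libraries none was called. Without H9-A4, 5 of 11 tested genes were called lower in all clones pooled and 1 higher, beside 4.47% and 4.48% of all genes. AXIN2, a feedback inhibitor induced by the pathway, was at 84.2 and 100.5 CPM in parental RKO, 99.3 in H9-A4 and 3.88 to 9.96 in the other 6 clones (log2 fold change -3.78 ± 0.25, adjusted p = 7.06e-06 in edgeR's test without H9-A4). TCF7, a factor of the pathway, was at 52.1 and 45.9 CPM in parental RKO, 61.7 in H9-A4 and 5.83 to 16.3 in the other clones. NOTUM, SP5 and NKD1 were the other genes called lower. MYC was called higher (0.69 ± 0.13, adjusted p = 0.00748), with 713.2 and 753.4 CPM in parental RKO and 998.4 to 1343 in the clones. SOX9 itself had no more than 6 reads in any library.

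Of 19 intestinal stem cell genes, 15 were tested without H9-A4, where CD44 and RGMB were called higher and AXIN2 and MSI1 lower in the pooled clones and in each genotype, beside the same shares of all genes in the pooled clones. The adhesion receptor CD44 was at 28.4 and 24.8 CPM in parental RKO, 163.7 to 286.9 in 6 clones and 1.01 in H9-A4, so H9-A4 lay below parental RKO and the other clones above it. Of 15 stomach and foregut genes 6 were tested without H9-A4, and 1 was called lower in the pooled clones, IRX2 (-0.85 ± 0.24, adjusted p = 0.0479), beside 4.47% of all genes, and in neither genotype alone. PDX1, a foregut factor, was at 5.41 and 2.79 CPM in parental RKO and 1.73 to 4.98 in the clones.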
